A study of Mus musculus with 4 samples.

Results

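The AP-1 family examined here comprised 7 genes, Fosb, Fos, Fosl1, Fosl2, Jun, Junb and Jund, out of 19938 genes with a value on the array. They were taken by gene symbol, and each of the 7 was represented by exactly 1 array feature. Fosb gives the family its place here because of its difference between citalopram and control, so that difference is reported as a description and supports nothing, and the other 6 genes were included as its relatives. Murine calvarial pre-osteoblasts of the MC3T3-E1 line, which comes from C57BL/6 mice, were grown in proliferation medium with or without citalopram, a selective serotonin reuptake inhibitor (SSRI), at 100 µM. The groups were citalopram at day 7, untreated control at day 7, citalopram at day 3 and untreated control at day 3, all with 1% fetal bovine serum and all cells of the same line. Each group was measured on 1 Affymetrix array, so no difference at a single day has a replicate check. The labels give 3 wells per treatment and do not state whether their RNA was pooled.

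AP-1 is a dimeric transcription factor built from basic leucine zipper proteins. Fos proteins (Fosb, Fos, and the Fos-related antigens encoded by Fosl1 and Fosl2) do not form stable dimers with each other and bind DNA together with a Jun protein, whereas Jun proteins can also pair among themselves. Fos and Jun dimers bind the AP-1 site, TGACTCA. Dimers with ATF partners bind the cAMP response element, TGACGTCA. In mouse bone, Fos itself is required for osteoclasts, and excess of Fra-1, the product of Fosl1, or of DeltaFosB, a truncated splice form of Fosb, raises bone mass. Several members are also immediate early genes, which respond to growth factors and stress within minutes and soon return to a low level.

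RefSeq promoter windows of assembly GRCm38.p6, from 250 bases before to 50 bases after the annotated start, were matched by symbol for 6 of the 7 genes, all except Fosl1. The windows of Fosb, Fos and Jun are shown because they hold letters related to the motifs above, with these letters in capitals. In Fosb and Fos they are TGACG, the first letters of the cAMP response element, and in Jun they are TGACATCA, a variant of the AP-1 site. Fosb lies at chr7:19309996-19310295 on the minus strand, Fos at chr12:85473640-85473939 on the plus strand and Jun at chr4:95052173-95052472 on the minus strand.
Fosb: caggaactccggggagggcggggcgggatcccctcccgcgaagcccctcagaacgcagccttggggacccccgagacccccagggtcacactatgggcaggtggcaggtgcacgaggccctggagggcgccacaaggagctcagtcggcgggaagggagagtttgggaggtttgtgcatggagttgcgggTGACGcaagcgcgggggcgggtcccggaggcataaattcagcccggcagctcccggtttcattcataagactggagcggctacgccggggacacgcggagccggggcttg
Fos: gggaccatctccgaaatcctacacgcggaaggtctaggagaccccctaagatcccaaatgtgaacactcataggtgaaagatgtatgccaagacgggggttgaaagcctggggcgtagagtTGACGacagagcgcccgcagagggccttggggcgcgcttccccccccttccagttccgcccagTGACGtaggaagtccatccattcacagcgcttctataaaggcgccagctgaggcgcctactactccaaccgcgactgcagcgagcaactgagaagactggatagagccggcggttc
Jun: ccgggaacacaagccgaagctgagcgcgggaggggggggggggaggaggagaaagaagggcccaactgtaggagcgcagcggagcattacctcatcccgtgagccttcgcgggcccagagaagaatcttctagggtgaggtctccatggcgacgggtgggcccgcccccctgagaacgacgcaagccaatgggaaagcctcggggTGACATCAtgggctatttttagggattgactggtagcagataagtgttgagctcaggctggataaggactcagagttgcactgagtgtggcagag

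Both strands of each window were searched for the AP-1 site, its variant in Jun, the cAMP response element, its first letters TGACG (so that a match to the whole element is also a match to these), the TATA box letters TATAAA and the CArG box bound by serum response factor. TGACG began 60 bases before the start of Fosb and 129 and 66 bases before that of Fos. Junb also held TGACG, beginning 106 bases before its start, and the variant site of Jun began 45 bases before its start. TATAAA began 33 bases before the start of Fos and, in Junb, at the annotated start itself. None of the 6 windows held the AP-1 site, the whole cAMP response element or the CArG box, and those of Fosl2 and Jund held none of the motifs searched. The windows reach only 250 bases before the start, so a site further upstream could not be found. Of 32851 promoter windows of 300 bases, 20.8% held TGACG, 3.62% the variant of the AP-1 site, 5.2% the AP-1 site, 1.79% the cAMP response element, 13.6% TATAAA and 1.63% the CArG box. These matches describe the letters of the windows and carry no information on binding.

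Over all features, Pearson's r between arrays was 0.986 to 0.995, and the medians of the arrays lay between 6.5 and 6.66 on the log2 scale. Dim genes were left out of each comparison by a floor, the 40th percentile of gene values on the array where the gene was brighter (5.95 to 6.01), and all 7 family members passed it in every comparison. Of 12 pre-osteoblast markers listed, 10 were measured, Runx2 and Bglap being the ones without a value. Of the 10, 9 reached the floor on at least 1 array. Sparc, Cdh11, Postn, Col1a1 and Col1a2 were at 11.9 or above on every array, while Ibsp was below the floor and Alpl exceeded it by at most 0.10. None of 5 endothelial and 0 of 6 adipocyte markers reached the floor. Of the macrophage markers 2 of 6 did (Cd68 and Lyz2), with Ptprc, Csf1r, Adgre1 and Tyrobp below it, and 3 of 5 chondrocyte and 4 of 5 muscle markers did, without Acan, Matn3 and Myog. Lyz2 differed between citalopram and control by 0.47 at day 7 and 0.57 at day 3, and Cd68 by 0.15 and -0.0090. Of the chondrocyte markers, Col2a1 differed by -0.22 at day 7 and 0.51 at day 3, and Sox9 by 0.28 and 0.41. Col9a1 differed by -0.058 at day 7 and -0.15 at day 3. The sums that follow also hold markers below the floor, and differences of opposite sign cancel in them. The summed log2 values of the macrophage markers were 38.0 with citalopram and 38.0 in control at day 7, and 38.8 with citalopram and 38.0 in control at day 3. Those of the chondrocyte markers were 37.9 with citalopram and 37.8 in control at day 7, and 37.6 with citalopram and 36.8 in control at day 3. Those of the muscle markers were 34.1 with citalopram and 34.7 in control at day 7, and 34.6 with citalopram and 34.7 in control at day 3, and the part of any of these in the results was not tested.

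Fosb encodes a Fos protein with a full transactivation domain and, by splicing, the shorter DeltaFosB, which a single feature per gene cannot tell apart. Fosb was at 8.25 with citalopram and 6.88 in control at day 7, and at 8.05 with citalopram and 7.13 in control at day 3 (deposited log2 values). Both citalopram arrays were therefore above both control arrays, the lower citalopram array lying 0.91 above the higher control array. At day 7 the difference was 1.38 on the log2 scale, or 2.59-fold, the highest of 12167 genes above the floor. At day 3 it was 0.91, or 1.89-fold, which ranked 9th from the top of 12196 genes.

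**Figure D1:**
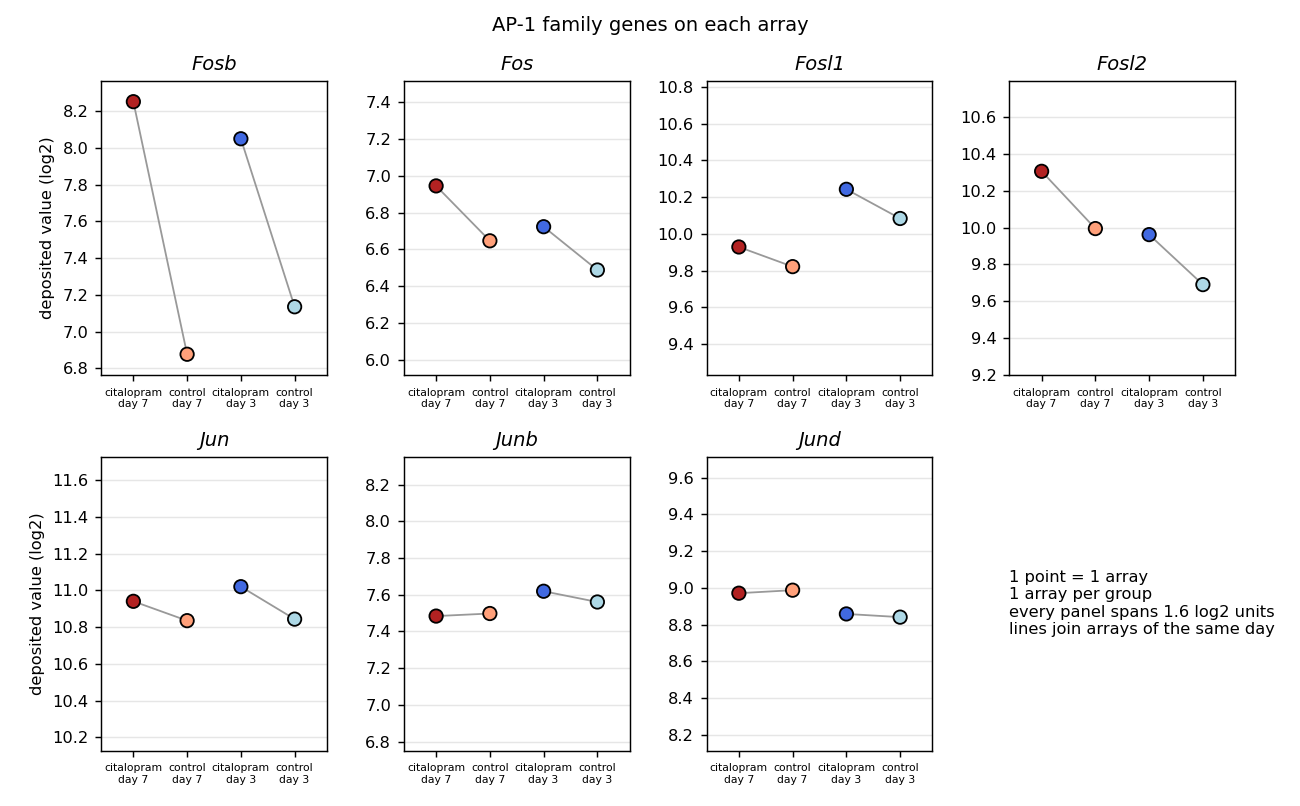
Deposited log2 value of each AP-1 gene on the 4 arrays (y axis, each panel spanning 1.6 log2 units around the gene's own range); 1 point is 1 array, and lines join citalopram and control of the same day. Fosb sits at 8.25 and 8.05 with citalopram and at 6.88 and 7.13 in control, whereas Junb and Jund vary by at most 0.15 over the 4 arrays.

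Fos, the founding member, was at 6.95 with citalopram and 6.65 in control at day 7, and at 6.72 with citalopram and 6.49 in control at day 3. The citalopram array was the higher of its day each time, by 0.30 at day 7 and 0.24 at day 3, and the lower citalopram array lay 0.08 above the higher control array. Fosl2, which encodes Fra-2, was at 10.3 with citalopram and 9.99 in control at day 7, and at 9.96 with citalopram and 9.69 in control at day 3. Its citalopram differences were 0.31 at day 7 and 0.27 at day 3, but the control array of day 7 was slightly above the citalopram array of day 3, so the treatments overlapped across days. Fosl1, which encodes Fra-1, was at 9.93 with citalopram and 9.82 in control at day 7, and at 10.2 with citalopram and 10.1 in control at day 3. Its citalopram differences were 0.11 at day 7 and 0.16 at day 3, and both day 7 arrays were below both day 3 arrays.

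Among the partners, Jun was at 10.9 with citalopram and 10.8 in control at day 7, and at 11.0 with citalopram and 10.8 in control at day 3. Both citalopram arrays were above both control arrays, by 0.11 at day 7 and 0.18 at day 3. Junb, whose protein activates transcription less strongly than Jun at many AP-1 sites, was at 7.48 with citalopram and 7.50 in control at day 7, and at 7.62 with citalopram and 7.56 in control at day 3. Jund, the most constitutively expressed Jun gene in many cell types, was at 8.97 with citalopram and 8.99 in control at day 7, and at 8.86 with citalopram and 8.84 in control at day 3. For Junb and Jund the citalopram array was marginally the lower at day 7 and the higher at day 3, with differences of -0.014 at day 7 and 0.059 at day 3 for Junb and of -0.016 at day 7 and 0.017 at day 3 for Jund.

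All 4 Fos genes were higher with citalopram at both days, against 1 of 3 Jun genes, which was Jun. Over the family, 5 of 7 genes were higher at both days, as were 31.2% of the 11952 genes that reached the floor on both days. At day 7, 5 of 7 were higher and the median difference was 0.11, while 51.3% of all genes were higher, with a median of 0.0055. At day 3, 7 of 7 were higher and the median was 0.18, while 57.7% of all genes were higher, with a median of 0.029. Because Fosb was chosen on this contrast, its part in these counts and medians was fixed in advance and nothing is read from it. Fosb was the only member past 1.5-fold at either day. Past 1.5-fold and higher were 0.559% of genes at day 7 and 0.5% at day 3, and 0.0418% of genes were so at both days, but since Fosb was chosen on this contrast nothing is read from its count of 1.

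**Figure D2:**
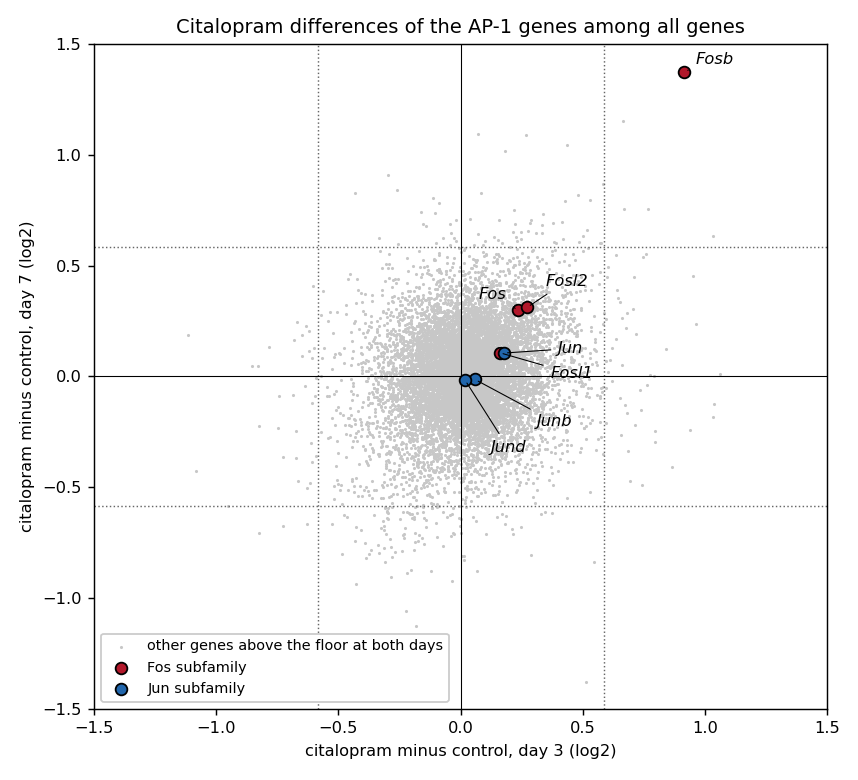
Citalopram minus control in log2 units at day 3 (x axis) and at day 7 (y axis) for the 11952 genes that passed the floor on both days (grey), with the Fos genes in red and the Jun genes in blue; dotted lines mark 1.5-fold. Fosb lies alone at 1.38 at day 7 and 0.91 at day 3, Fos and Fosl2 lie near 0.24 to 0.31 on both axes, and Junb and Jund lie within 0.06 of 0.

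The size of the other differences can be set against genes in general. Across genes above the floor the median absolute citalopram difference was 0.13 at day 7 and 0.11 at day 3, and the central 95% of signed differences ran from -0.44 to 0.42 at day 7 and from -0.33 to 0.40 at day 3. Fos and Fosl2 stood inside these ranges, above 92.9% and 93.7% of genes at day 7 and above 88.6% and 91.8% of genes at day 3. Fosl1 and Jun were less extreme, above 70.2% and 69.9% of genes at day 7 and above 79.1% and 81.6% at day 3. Junb and Jund lay near the middle, above 45.2% and 44.7% of genes at day 7 and above 57.3% and 47.0% at day 3. All differences of the 6 relatives of Fosb thus lay within the central 95% of genes at both days, and with 1 array a group no p-value was attached to any of them.

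Between day 7 and day 3, no member passed 1.5-fold in either treatment. The shares of genes past 1.5-fold between day 7 and day 3 were 4.81% with citalopram and 2.29% in control. Of the 7, 3 were higher at day 7 in both treatments (28.2% of all genes) and 3 were lower in both (36.7% of all genes), although Jund with citalopram and Jun in control changed sign under another scaling. Fosl2 was higher at day 7, by 0.34 with citalopram and by 0.31 in control. Fos was higher by 0.22 with citalopram and 0.16 in control, and Jund by 0.11 with citalopram and 0.15 in control. Fosl1 was lower at day 7, with log2 differences of -0.31 with citalopram and -0.26 in control. Junb differed by -0.14 with citalopram and -0.063 in control, and Jun by -0.080 with citalopram and -0.0083 in control. Fosl2 and Fosl1, the genes of the Fos-related antigens, therefore had day differences of opposite sign in both treatments.

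On the deposited values, Fosb was the only member whose day difference changed sign with treatment. It was 0.20 higher at day 7 with citalopram and 0.26 lower in control (log2 difference -0.26). Opposite signs in the treatments were found in 35.1% of the 11977 genes compared. The difference between these effects, 0.46, equals the difference between the citalopram changes at day 7 and day 3 and was not tested because every group is a single array. Over the scalings tried, the deposited one included, the day difference of Fosb was 0.047 to 0.20 with citalopram and -0.38 to -0.26 in control. Jund also had opposite signs under another scaling (-0.042 with citalopram, 0.039 or above in control). So did Jun (0.0050 in control, -0.031 or below with citalopram).

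**Figure D3:**
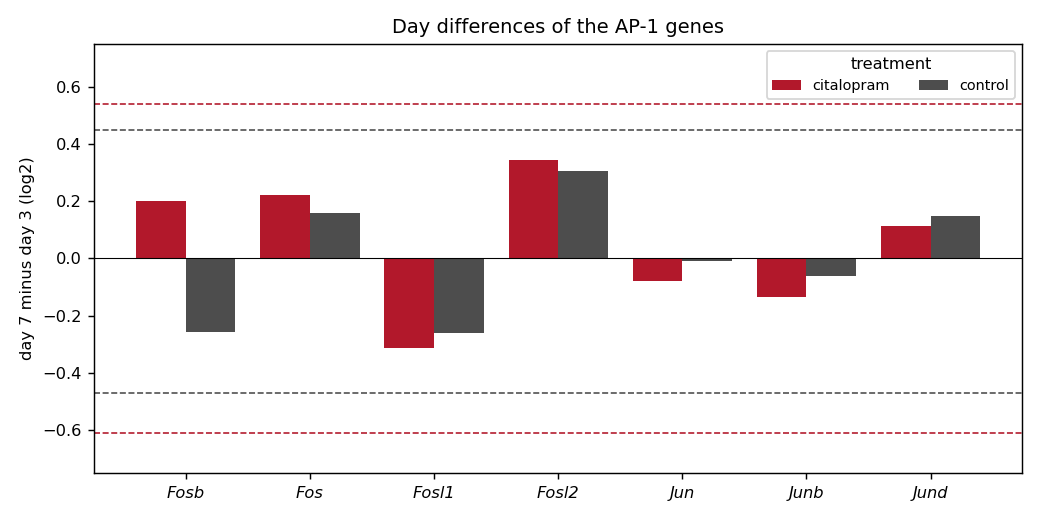
Day 7 minus day 3 in log2 units (y axis) for each AP-1 gene with citalopram (red bars) and in control (grey bars), 1 pair of arrays per bar; dashed lines of the same colours enclose the central 95% of genes. All bars lie inside the dashed lines, and only Fosb has bars of opposite sign.

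A day effect over both treatments was tested with limma on 12415 genes, with additive terms for treatment and day. A p-value measures whether a gene's mean day difference over both treatments departs from 0. The spread it is set against is how far the day differences with and without citalopram disagreed, pooled in part over all genes. This spread also holds any real change of the citalopram effect between days. The labels name no separate cultures, so the rest of it may be technical. Limma called 0 of the 7 members (2.8% of all genes were called), and at an unadjusted p under 0.05 there were 2 members, against 20.1% of all genes. Fosl2 was higher at day 7 by 0.32 (SE 0.10; limma's adjusted p 0.130), in both treatments. Fosl1 differed by -0.29 (SE 0.10; limma's adjusted p 0.167), also in both treatments. The call depended on scaling: limma's adjusted p was 0.0445 for Fosl2 after quantile normalization and 0.0158 for Fosl1 after median centring. Far more genes of all kinds were called there, so nothing particular to the members is read from these calls. They were 459 higher and 1085 lower after quantile normalization and 237 and 2057 after median centring, against 163 and 185 on the deposited values. For the other 5 members, adjusted p-values were from 0.352 (Fos) to 0.938 (Fosb) on the deposited values.

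How the 4 values of a gene varied about their mean was compared by Euclidean distance on the log2 scale, over 4 arrays, which describes likeness and is not a test. The closest members were Jun and Junb (0.13) and Fos and Fosl2 (0.14). Fosb was at 0.93 from Fos, 0.95 from Fosl2 and 1.04 to 1.18 from the other 4. The distance is not scaled to a gene's span, so these values largely restate the citalopram difference for which Fosb was chosen. Among 10898 genes above the floor on all arrays, predicted and small RNA genes, receptor clusters and Rik loci left out, the nearest to Fosb were Ptgfr, the prostaglandin F receptor gene (0.49), Lmcd1, which encodes a LIM domain protein (0.50), the imprinted gene Mest (0.53), the glutathione transferase gene Gstm1 (0.55) and Irs1, which encodes an insulin receptor substrate (0.55). Irs1 was read from the brighter of its 2 features.

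Only 2 genes lay within 0.5 of Fosb, whereas 6027 lay within 0.5 of Fosl2 and 69 within 0.1. Ptgfr was at 7.89 with citalopram and 7.02 in control at day 7, and at 7.53 with citalopram and 6.95 in control at day 3. Lmcd1 was at 10.3 with citalopram and 9.47 in control at day 7, and at 10.2 with citalopram and 9.70 in control at day 3. In both genes the citalopram arrays were above the control arrays, as for Fosb, which largely follows from picking them by nearness to Fosb. For Fosl2, the only other member whose values spanned 1.5-fold (1.53-fold), the nearest genes were Tnrc6b, of RNA silencing (0.011), the ankyrin gene Ank3 (0.026) and the splicing factor gene Srrm2 (0.033).

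**Figure D4:**
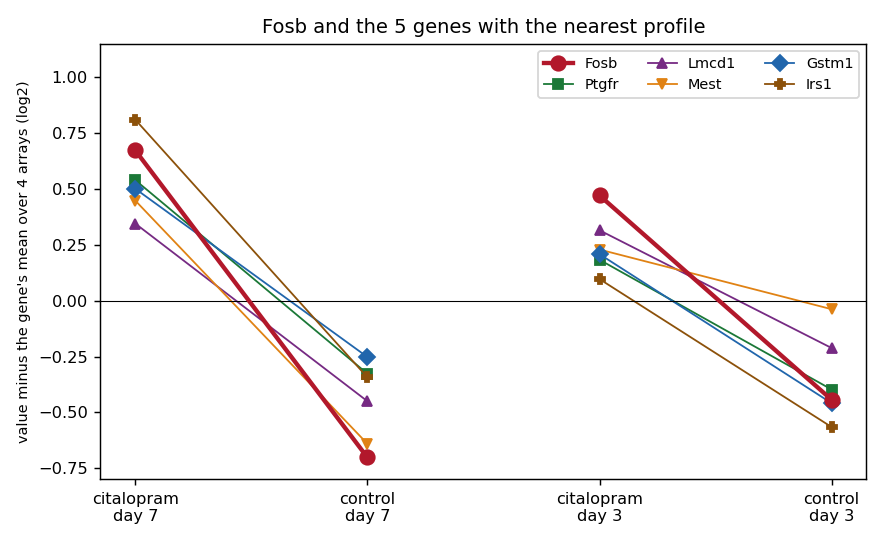
Log2 value minus the gene's own mean over the 4 arrays (y axis) for Fosb (thick red line) and the 5 genes at the smallest distance from it; 1 point is 1 array, and lines join citalopram and control of the same day. All 6 genes are higher with citalopram on both days; Fosb has the largest difference at each day, and Mest a small one at day 3 (0.27). The 5 genes were picked for nearness to Fosb, so their shared direction largely follows from that.

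Genes that act with, above or below AP-1 were described in 8 lists of 144 distinct genes, of which 132 were measured and 116 reached the floor on at least 1 array; the other 12 were not analysed here. The share of all genes with a positive citalopram difference, 51.3% at day 7 and 57.7% at day 3, is the background for each list's count of higher genes. Dimer partners of the ATF, JDP and BATF families were higher with citalopram in 8 of 10 at day 7 (median 0.15) and in 7 of 10 at day 3 (median 0.037). The stress-induced Atf3 was at 8.32 with citalopram and 7.62 in control at day 7, and at 7.89 with citalopram and 7.60 in control at day 3 (differences 0.71 at day 7 and 0.29 at day 3). Atf5 (0.62 at day 7 and -0.029 at day 3) was the other gene of this list past 1.5-fold, at day 7, and Ddit3, the CHOP gene, differed by 0.40 at day 7 and 0.083 at day 3. Partners of the MAF and related NFE2 families were higher in 4 of 7 at day 7 (median 0.046) and 6 of 7 at day 3 (median 0.088), with Maf at 0.12 at day 7 and 0.35 at day 3, Mafg at 0.26 at day 7 and 0.34 at day 3 and the dim Mafa at -0.073 at day 7 and -0.32 at day 3.

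Upstream, the MAP kinase genes and their effectors were higher in 10 of 16 at each day, with medians of 0.038 at day 7 and 0.043 at day 3. The p38 kinase genes Mapk11 (-0.40 at day 7 and 0.025 at day 3) and Mapk12 (-0.37 at day 7 and 0.13 at day 3) and Rps6ka5, which encodes the kinase MSK1 (0.21 at day 7 and 0.37 at day 3), had the largest differences. Feedback genes, including the MAP kinase phosphatases, were higher in 7 of 16 at day 7 (median -0.031) and in 12 of 16 at day 3 (median 0.098). Among them Dusp10 differed by -0.025 at day 7 and 0.48 at day 3, Dusp4 by -0.041 at day 7 and 0.31 at day 3, and Zfp36l1, an mRNA decay factor gene, by 0.29 at day 7 and 0.38 at day 3. Transcription factors and coactivators that act on the Fos and Jun promoters were higher in 10 of 14 at day 7 (median 0.10) and in 14 of 14 at day 3 (median 0.18), beside 51.3% of all genes at day 7 and 57.7% at day 3. Examples are Mef2c (0.23 at day 7 and 0.40 at day 3), Mrtfb, a coactivator of serum response factor read from the brightest of 3 features (0.20 at day 7 and 0.40 at day 3), and Mef2d, from the brighter of 2 (0.37 at day 7 and 0.28 at day 3). Ubiquitin ligases and other regulators of AP-1 protein were higher in 5 of 7 at day 7 (median 0.057) and 4 of 7 at day 3 (median 0.016), Cop1 being at 0.17 at day 7 and -0.15 at day 3, Men1 at -0.17 at day 7 and 0.016 at day 3 and Fbxw7 at 0.16 at day 7 and -0.11 at day 3.

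Immediate early genes outside the family were higher in 11 of 21 at day 7 (median 0.060) and in 18 of 21 at day 3 (median 0.097). Besides Atf3, Klf4, a zinc finger factor gene, was past 1.5-fold at day 7 (0.65, and 0.33 at day 3), and the orphan receptor gene Nr4a1 differed by 0.57 at day 7 and 0.50 at day 3. Genes with described AP-1 sites were higher in 10 of 25 at day 7 (median -0.023) and in 19 of 26 at day 3 (median 0.15). Of these Hmox1, the haem oxygenase 1 gene, was past 1.5-fold at both days (0.63 at day 7 and 1.03 at day 3), and 2 genes of monocyte-attracting chemokines, Ccl2 (-1.38 at day 7 and 0.51 at day 3) and Ccl7 (-0.84 at day 7 and 0.55 at day 3), passed it on the lower side at day 7. Of all genes 51.3% were higher at day 7 (median 0.0055) and 57.7% at day 3 (median 0.029), and 0.559% were past 1.5-fold higher and 0.945% lower at day 7. In no list did more than 3 genes pass 1.5-fold at a day. List medians near 0 changed sign under another scaling for 2 of 8 lists at day 7 (the MAF partners and the kinases) and for 1 at day 3 (the ubiquitin ligases).

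**Figure D5:**
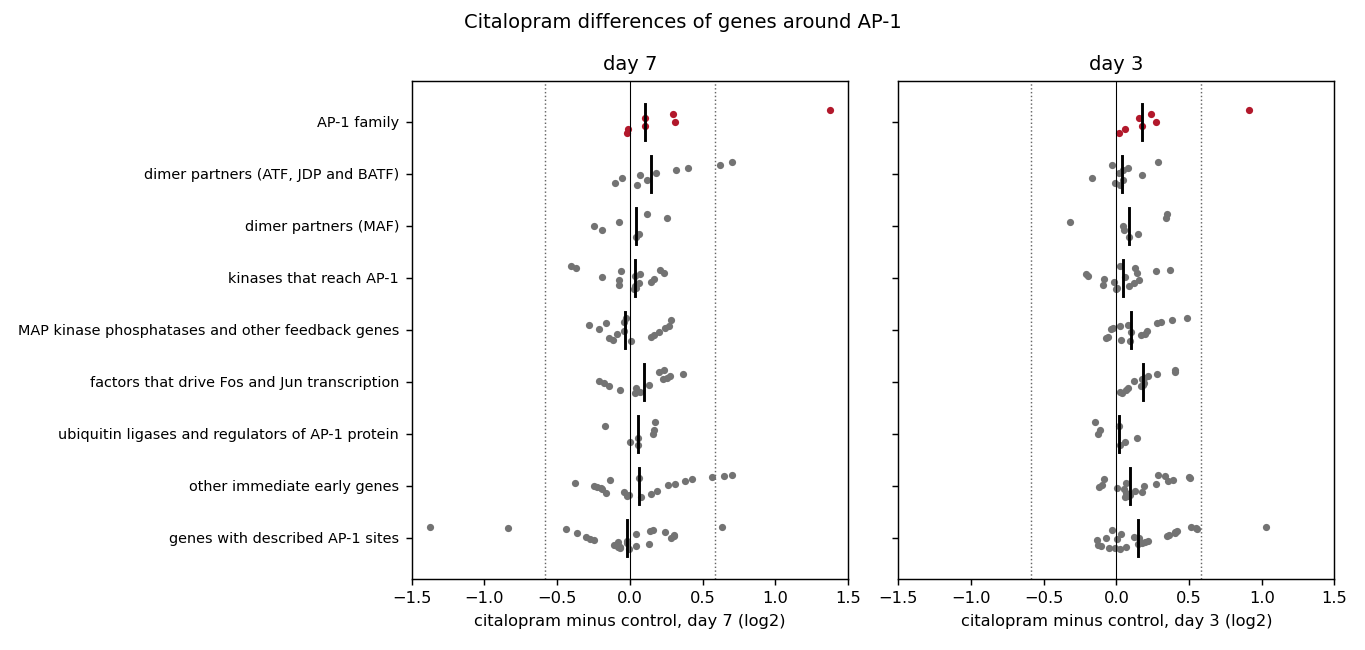
Citalopram minus control in log2 units (x axis) at day 7 (left) and day 3 (right) for the 7 AP-1 genes (red) and for the genes of each list above the floor in that comparison (grey); 1 point is 1 gene, black bars are medians and dotted lines mark 1.5-fold. Fosb lies to the right of every listed gene at day 7 (1.38), and at day 3 (0.91) of all but Hmox1 (1.03).

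For the day effect, limma called 5 of the 116 listed genes, 1 higher and 4 lower at day 7, while it called 348 of 12415 genes in all (2.8%), so the lists' count is described and nothing particular to them is read from it. The 4 lower genes are named after their values were seen. Rps6ka5 was higher by 0.54 (limma's adjusted p 0.0426). The ERK phosphatase gene Dusp6 fell by 0.62 (limma's adjusted p 0.0278) and Dusp5, another, by 0.89 (0.0063). Mmp13, the collagenase 3 gene, whose promoter holds a well-known AP-1 site, was at 5.66 with citalopram and 5.80 in control at day 7, and at 6.46 with citalopram and 6.51 in control at day 3. It fell by 0.76 at day 7 (limma's adjusted p 0.0114), to below the floor, and Vegfa, a vascular growth factor gene, fell by 0.68 (0.0155). In all 4 genes both day 7 arrays were below both day 3 arrays, an order that the call itself favours, so nothing is read from it. Rps6ka5 was called in 7 of 8 settings (adjusted p up to 0.0663 with no floor), and the 4 lower genes in every setting in which they were tested. Between days with citalopram, 9 of 26 genes with described AP-1 sites were past 1.5-fold lower, beside 342 of 12187 genes. In control, 2 of 26 were past it lower and 3 higher, beside 138 and 142 of 12201 genes. That list was drawn up with earlier results of these data known, and its day differences as a set were not tested.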

How the data were processed

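The authors deposited log2 expression values, 1 per feature and array, and these were used unaltered. No source states the base, and log2 fits the range of 3.9 to 15.5. Per the submitters' processing notes, Partek was used; how background, scaling and probes were handled is not stated. If arrays were scaled to each other, a shift common to most genes cannot be seen. The number of arrays limits precision.

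The platform annotation gives a single symbol to 21789 of 35556 features; the 1621 with several were not used to name genes. For each of 19938 genes the brightest feature over the 4 arrays was kept. Differences of log2 values were counted past 1.5-fold, with no test, because each group is 1 array. The day effect came from limma 3.58.1 under R 4.3.3 (two-sided moderated statistics from lmFit and eBayes, adjusted by Benjamini-Hochberg over the 12415 genes that reached the floor on any array), which leaves 1 residual degree of freedom; the procedure was tested on simulated data. No p for citalopram was given to members. The members and lists were chosen with earlier results of these data known. Genes named from a list were its 3 largest citalopram differences at either day and any past 1.5-fold. Alternatives were quantile normalization, cyclic loess, median centring, the mean of all features of a gene, no floor, a floor at the 60th percentile and an intensity trend. Python 3.11.15 with pandas 2.3.3 and numpy 2.4.6 was used otherwise.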

Additional observations from a re-analysis of the deposited data

Results flagged for a closer look

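For the following genes the citalopram difference had opposite signs at day 7 and day 3, with 1 pair of arrays at each day, and the difference between days was not tested. It was 0.65 for Atf5, 0.32 for Cop1 and 0.28 for Fbxw7, whose citalopram differences were higher at day 7. It was -1.89 for Ccl2, -1.39 for Ccl7, -0.51 for Dusp10, -0.50 for Mapk12, -0.43 for Mapk11, -0.35 for Dusp4 and -0.19 for Men1, whose differences were lower at day 7. Within the family it was -0.073 for Junb and -0.034 for Jund, both smaller than the median absolute difference of all genes at either day (0.13 and 0.11).

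For Fosb the day difference had opposite signs in the treatments, 0.20 with citalopram and -0.26 in control, a gap of 0.46 that was not tested.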

How the results depend on the processing

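Of the 28 member differences, 26 kept their sign under quantile normalization, cyclic loess and median centring; the exceptions were Jun between days in control (-0.12 to 0.0050) and Jund between days with citalopram (-0.042 to 0.11). Fosb stayed between 1.32 and 1.38 at day 7 and between 0.90 and 0.91 at day 3 under these scalings. With the floor at the 60th percentile, Fosb fell below it at day 3, leaving 0 members past 1.5-fold there, and the counts of genes at day 3 were 34 higher and 20 lower, against 61 and 37 with the floor at the 40th. Fos and Junb, both dimmer than Fosb with citalopram, were left out of the day fit with that higher floor. Median centring moved the median gene by -0.15 between days with citalopram and by -0.11 in control. Under it, 44 genes were past 1.5-fold higher with citalopram at day 7, against 68, and between days the counts were 110 higher and 876 lower with citalopram, against 244 and 342, and 89 higher and 294 lower in control, against 142 and 138. The share of such calls that were higher at day 7 with citalopram over control was 37.2% as deposited, 26.0% after quantile normalization and 21.1% after median centring; between days it was 41.6%, 25.7% and 11.2% with citalopram, and 50.7%, 40.2% and 23.2% in control. For the day effect limma called 163 genes higher and 185 lower on the deposited values, 459 and 1085 after quantile normalization, 436 and 582 after cyclic loess, 237 and 2057 after median centring, 99 and 91 with no floor, and 299 and 445 with the higher floor. Of the members it called 1 after quantile normalization (Fosl2) and 1 after median centring (Fosl1). Both are scalings under which the calls over all genes also rose, so nothing particular to the members is read from this. Limma's adjusted p ranged from 0.0445 to 0.264 for Fosl2 and from 0.0158 to 0.214 for Fosl1. Of 993 values recomputed for genes and list medians over all alternatives, 102 moved by at least 0.1 and 0 past 1.5-fold changed sign. The cause of these shifts was not tested. The additive fit itself compares days within each treatment, and with 1 array a group there was no further replicate number to enter as a block. No array could be left out of the additive fit, which would have 0 residual degrees of freedom.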
